A study of Mus musculus with 36 samples.

Results

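The female and male lines of lots 7, 8 and 11, 6 transformed mouse astrocyte lines written Lot7_F, Lot7_M and so on, were profiled in a library numbered 4 in addition to libraries numbered 1 to 3. The 6 replicate 4 libraries are defined by lot and replicate number in the labels, and were compared with the 18 libraries numbered 1 to 3 of the same lines, out of 36 libraries in all. Every line carries a deletion of both Nf1 alleles, a negative regulator of Ras signalling, together with DNp53, a dominant-negative form of the tumour suppressor p53, so the compared groups share their genotype and differ only in library number. The lots are separate litters, each giving 1 female and 1 male line, and no treatment, time point or animal age is labelled. All cells were grown in DMEM/F12 medium with 10% fetal bovine serum and 1% penicillin/streptomycin, and RNA was counted by BRB-seq, a pooled method in which each sample receives a barcode and the 3′ ends of polyadenylated transcripts are read. The 12 libraries of lots 6 and 12, which have no number 4, serve only as outside levels. The labels leave unsaid whether libraries of the same line came from separate cultures, and whether number 4 marks a shared day, plate or pool. The p-values below therefore measure only the spread between these libraries, which may be technical.

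The mitochondrial genome is a small circle that is transcribed from both strands into long RNAs, which are cut largely at tRNAs into mRNAs for core subunits of the respiratory chain and into 2 ribosomal RNAs. Most mitochondrial mRNAs then receive a short poly(A) tail, which for some of them completes the stop codon. Nuclear genes supply all other respiratory subunits and the proteins that transcribe, process and translate mitochondrial RNA. In astrocytes, mitochondria support oxidative metabolism, fatty acid oxidation and the handling of glutamate and oxidants.

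Because the method reads 3′ ends, the ends of the 8 mitochondrial mRNAs that could be tested are shown, each as the final 30 bases of the GENCODE M21 transcript on GRCm38, 5′ to 3′. Capitals mark the stop codon, or the single base of an incomplete one in mt-Nd4 and mt-Cytb.
mt-Nd1: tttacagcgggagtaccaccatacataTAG
mt-Nd2: ctacccctagccccccaactaattaccTAG
mt-Co1: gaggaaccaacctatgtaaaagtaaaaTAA
mt-Nd3: acacaaaaaggattagaatgaacagagTAA
mt-Nd4: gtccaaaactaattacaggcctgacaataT
mt-Nd5: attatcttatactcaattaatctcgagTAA
mt-Nd6: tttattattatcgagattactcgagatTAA
mt-Cytb: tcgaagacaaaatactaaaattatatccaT

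The 8 tested mRNAs were those with enough counts. mt-Co2, mt-Atp8 and mt-Nd4l had 0 counts in all 36 libraries, and mt-Atp6 and mt-Co3 had 2 counts each. Of the 13 mitochondrial mRNAs, mt-Nd1 alone held 48.0% of the mitochondrial mRNA counts in replicate 4 and 46.8% in replicates 1 to 3. mt-Cytb followed with 31.2% and 32.3%, so among the mitochondrial mRNAs that received counts the makeup was close in both groups. mt-Nd6 is the only one of these mRNAs encoded on the opposite strand, at chrMT:13552-14070.

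Library totals ran from 5549178 to 6889110 counts in replicate 4 and from 4358098 to 7445520 counts in replicates 1 to 3. No pair of libraries held identical values, and each of the 24 libraries was closest to a library of its own line. Counts on Y-linked genes matched the labelled sex in every line. The astrocyte label was checked against 12 markers: their summed level was 138 to 233 CPM (counts scaled by library size) in replicate 4 and 74.7 to 329 CPM in replicates 1 to 3, mostly from Gja1, the gap junction protein connexin 43, at 117 to 205 and 36.2 to 286 CPM. Gfap and Aqp4, which define mature astrocytes, were near 0, at no more than 0.778 and 0.721 CPM in replicate 4 and 1.08 and 1.20 CPM in replicates 1 to 3, and Gjb6 had no counts. None of the 6 astrocyte markers tested was called in edgeR's quasi-likelihood test at a Benjamini-Hochberg adjusted p of 0.05, where 402 of 11262 genes (3.57%) were.

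Replicate 4 had the lowest share of counts on mitochondrial mRNA in each of the 6 lines. That share was 0.251% to 0.349% in the replicate 4 libraries, with a median of 0.328%, and 0.534% to 0.770% in the 18 others, with a median of 0.627%. The groups did not overlap. By line, the replicate 4 library stood at 0.349% against 0.643% to 0.770% in Lot7_F and at 0.336% against 0.582% to 0.643% in Lot7_M. It stood at 0.324% against 0.608% to 0.641% in Lot8_F and at 0.251% against 0.534% to 0.617% in Lot8_M. In lot 11 it was 0.315% against 0.559% to 0.671% in the female line and 0.333% against 0.609% to 0.660% in the male line. The ratio of replicate 4 to the mean of its line ran from 0.442 in Lot8_M to 0.554 in Lot7_M. The mean difference was −0.305 ± 0.0220 percentage points (SD, n = 6 lines). Since the low share was known when this comparison was chosen, it is described without a test, and the calls of single mitochondrial genes below are likewise a description. The 12 libraries of lots 6 and 12 lay at 0.461% to 0.775%, all above every replicate 4 library.

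**Figure D1:**
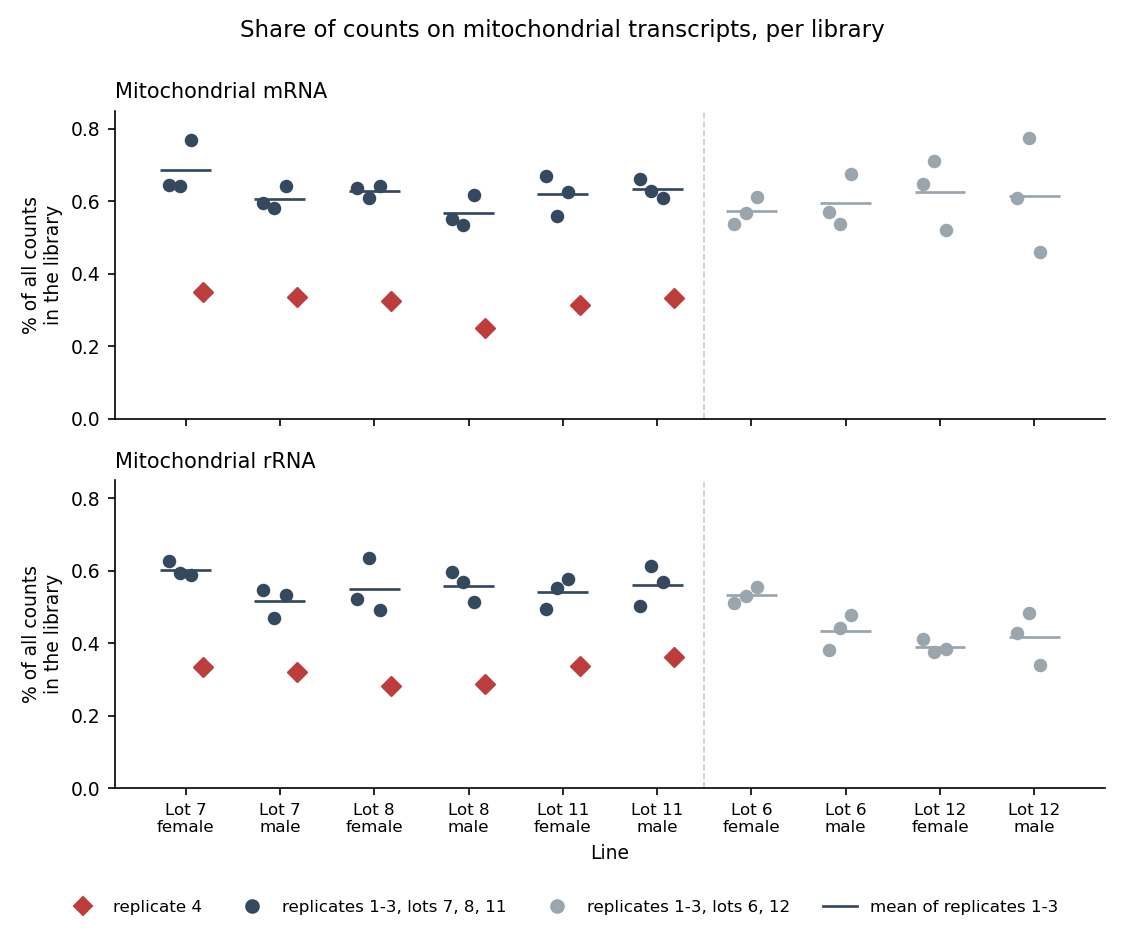
Share of each library's counts on mitochondrial mRNA (upper panel) and rRNA (lower panel), in percent, by line. Points are single libraries and bars the means of replicates 1 to 3; replicate 4 (diamonds) lies lowest in all 6 lines, at 0.251% to 0.349% for mRNA and 0.282% to 0.362% for rRNA, and lots 6 and 12 (grey) have no library 4.

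The mitochondrial ribosomal RNAs, which form the core of the organelle's own ribosome, were lower as well. Their share was 0.282% to 0.362% in replicate 4 (median 0.329%) and 0.470% to 0.636% in replicates 1 to 3 (median 0.560%), without overlap, a mean difference of −0.234 ± 0.0380 percentage points (SD, n = 6 lines). The outside lots, with an rRNA share of 0.340% to 0.557% (median 0.435%), overlapped replicate 4 in this measure, which they did not in the mRNA share. These are shares of captured counts. Absolute RNA amounts were not measured, and in bulk RNA fewer mitochondria-rich cells and less mitochondrial RNA per cell cannot be told apart.

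Of the 8 complex I, III and IV mRNAs that could be tested, 7 were called lower in edgeR, as were 232 of all 11262 genes (2.06%). mt-Nd1, a membrane-arm subunit of complex I, had 1187 to 1669 CPM in replicate 4 (median 1513) and 2530 to 3217 CPM in replicates 1 to 3 (median 2946). The groups were separated by more than the whole range of either, and the fitted log2 difference was −0.99 ± 0.05 (SE), a level 49.7% lower. mt-Cytb, the mitochondrially encoded subunit of complex III, had 787 to 1087 CPM (median 976) against 1798 to 2373 CPM (median 1991), also without overlap, and a log2 difference of −1.08 ± 0.05 (SE). mt-Co1, the catalytic subunit of complex IV, had 84.8 to 118 CPM (median 98.2) against 149 to 263 CPM (median 179), with a log2 difference of −0.93 ± 0.07 (SE).

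The other complex I subunits had similar fitted differences. mt-Nd2 had 130 to 180 CPM in replicate 4 (median 158) and 274 to 384 CPM in the rest (median 346), a log2 difference of −1.12 ± 0.06. mt-Nd4 had 215 to 304 CPM (median 265) against 392 to 729 CPM (median 503), a log2 difference of −0.95 ± 0.07. mt-Nd5 had 58.2 to 86.1 CPM (median 69.9) against 106 to 187 CPM (median 148), a log2 difference of −1.05 ± 0.09. For these subunits too, every replicate 4 library lay below every other library of the 6 lines. The light-strand mRNA mt-Nd6 had 42.6 to 59.8 CPM (median 52.7) against 86.4 to 155 CPM (median 127), and its log2 difference of −1.29 ± 0.10 was the farthest from 0 among the 7. mt-Nd3 was the exception, with a log2 difference of −0.48 ± 0.53 (SE) and edgeR adjusted p = 0.74 on few counts. It had 0 to 1 counts in each library of the 4 lines of lots 7 and 8, so this value rests on the 2 lines of lot 11.

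Both ribosomal RNAs were called lower, with smaller fitted differences than the 7 mRNAs, a contrast that was not tested. mt-Rnr2, the large-subunit rRNA, had 2595 to 3467 CPM in replicate 4 (median 2932) and 4398 to 6130 CPM in replicates 1 to 3 (median 5380), a log2 difference of −0.85 ± 0.06 (SE). mt-Rnr1, the small-subunit rRNA, had 127 to 167 CPM (median 139) against 159 to 258 CPM (median 207), so its groups overlapped over all lines, and its log2 difference was −0.55 ± 0.07 (SE). Within each line, however, replicate 4 lay below all 3 others for both rRNAs and for the 7 mRNAs. For comparison, the same pattern was found for 97 of 11262 genes tested (0.861%).

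**Figure D2:**
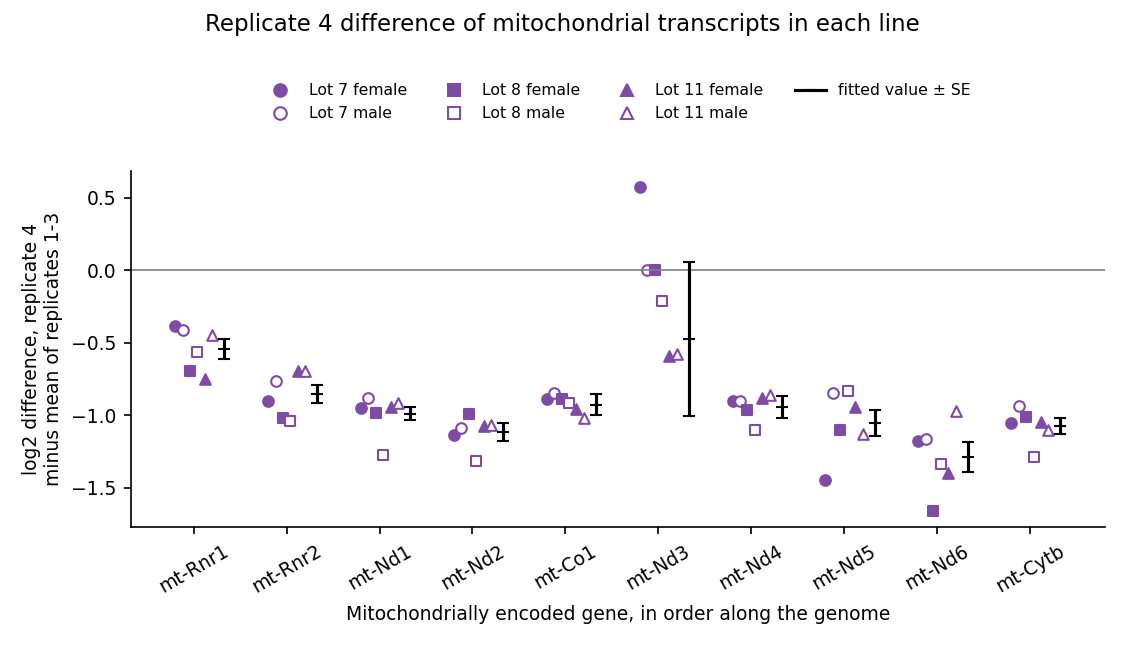
Log2 difference of replicate 4 from the mean of replicates 1 to 3 for each mitochondrial gene, with 1 point per line and the fitted value ± SE in black. The points lie below 0 in all 6 lines for the 7 mRNAs and 2 rRNAs but not for mt-Nd3, and Lot8_M lies lowest for mt-Nd1 at −1.27.

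mt-Nd1 and mt-Cytb, the mitochondrial mRNAs with the most counts, were steady among the libraries numbered 1 to 3. Over replicates 1 to 3, the SD of log2 CPM within a line was 0.084 for mt-Nd1 and 0.117 for mt-Cytb, against a median of 0.169 over the 3487 genes whose mean log2 CPM reached 5. It was 0.126 for mt-Nd2. The other called mRNAs lay above that median, mt-Co1 at 0.177, mt-Nd5 at 0.191, mt-Nd4 at 0.194 and mt-Nd6 at 0.226. mt-Nd1 ranked 3301 of 3487 from the most to the least variable. In lots 6 and 12 it was variable instead, with an SD of 0.368 and rank 309.

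Nuclear DNA holds old copies of mitochondrial genes, which can share reads with the originals, and 7 of 10 such annotated copies were tested. None was called, and their median log2 difference was −0.76. How multi-mapping reads were assigned is not given in the sources used here, so their counts and those of the mitochondrial genes cannot be fully separated.

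Nuclear genes of the respiratory chain had a median difference near 0. Over all genes the median log2 difference was −0.0019, and 170 of 11262 genes (1.51%) were called higher in replicate 4. From here on, a value in parentheses after a gene name is its fitted log2 difference. Of 79 tested nuclear subunits of the respiratory chain, none was higher and 3 were lower, with a median log2 difference of −0.04. These were Atp5g1, a subunit of the ATP synthase ring (−0.21), and the complex I subunits Ndufs8 (−0.18) and Ndufa11 (−0.20). Under scaling by library totals alone 2 were higher and 1 lower, with a median of 0.01, so the direction of this list depends on the scaling. DESeq2 called 11 lower and none higher. Leaving out 1 library at a time gave 1 to 4 lower, and without the Lot7_M replicate 4 library the adjusted p of Ndufs8 was 0.0856 and that of Ndufa11 was 0.144.

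Of 35 tested genes for mitochondrial transcription and RNA processing, 1 was higher, Pnpt1, the mitochondrial polynucleotide phosphorylase, at 21.8 to 33.0 CPM (median 30.8) against 13.2 to 26.2 CPM (median 18.8). Replicate 4 was the highest library of all 6 lines for Pnpt1, which had a log2 difference of 0.61 and edgeR adjusted p = 0.00338. Of 77 tested mitochondrial ribosomal protein genes, 5 were lower and none higher, with a median of −0.06. They were Mrps6 (−0.34), Mrpl49 (−0.39), Mrpl17 (−0.26), Mrpl55 (−0.27) and Mrps11 (−0.31). The count of 5 fell to 3 with library totals alone and without the Lot7_M or the Lot8_M replicate 4 library. It reached 7 at most over the libraries left out. DESeq2 called 12 of the 77 lower. For comparison, edgeR called 2.06% of all 11262 genes lower. Among genes whose mean log2 CPM reached 4, the share was 7.50% for longest annotated transcripts under 1 kb and 6.77% from 1 to 2 kb. The list was not tested against these shares. Of 32 tested genes for protein import and quality control, 1 was lower, the ADP/ATP carrier Slc25a4 (−0.18).

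Across the transcriptome, the replicate 4 libraries stood together and apart from the rest. The first principal component of within-line deviations over 5151 genes held 16.2% of the variance, and on it replicate 4 scored 9.26 to 12.9 (median 11.2), against −8.72 to 1.32 for replicates 1 to 3. Replicate 4 was highest in 6 of 6 lines, and replicate 3 was lowest in 6 of 6. The deviations of replicate 4 libraries from different lines correlated at 0.164 to 0.360 (median 0.277, Pearson's r across genes, 15 pairs of libraries). The medians for pairs numbered 1, 2 and 3 were 0.044, 0.032 and 0.115. Genes are not independent replicates, and libraries with a shared number may share conditions that the labels do not state.

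**Figure D3:**
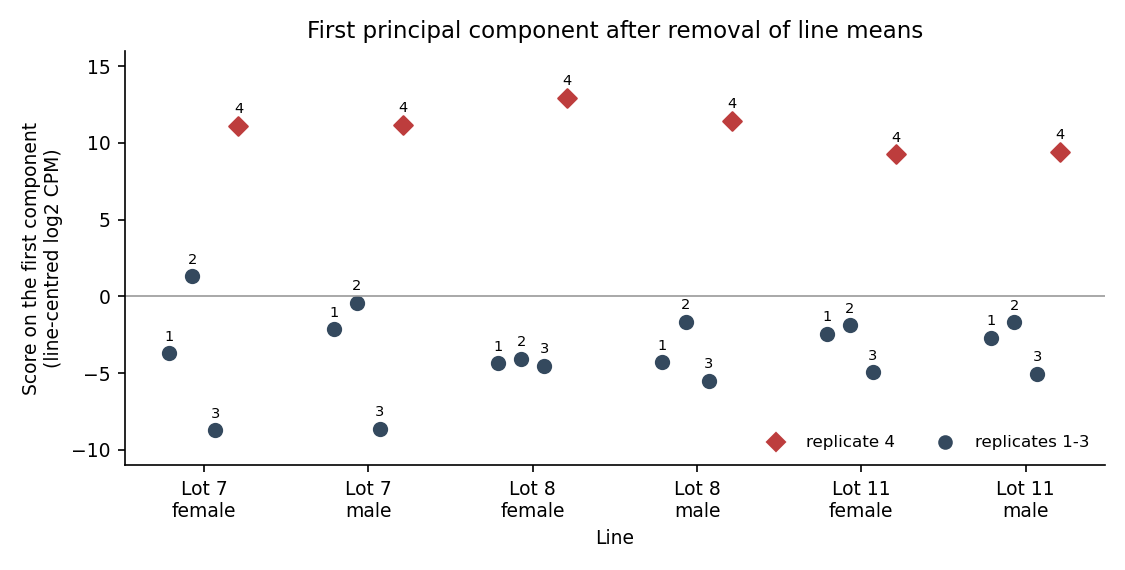
Score of each library on the first principal component of within-line deviations in log2 CPM (5151 genes, arbitrary units), by line, with the replicate number beside each point. Replicate 4 of all 6 lines lies between 9.26 and 12.9, and no library numbered 1 to 3 lies above 1.32.

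In the same test, replicates 1, 2 and 3 gave 0 calls among 11261 genes, with 790 genes at an unadjusted p under 0.05 where 563.05 would be given by chance. DESeq2 called 21, and testing without a filter on low counts called 124. For replicate 4 against the rest the unadjusted count was 1827. The replicate 4 difference was called different between female and male lines for 0 of 11262 genes (0%, 422 unadjusted) and between lots for 0 (0%, 485 unadjusted) in edgeR. DESeq2 called 0 and 1, and testing without a filter called 12 and 38. A missed threshold does not show that the lines responded alike.

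Size and breadth of the change were modest. The called genes had a median log2 difference of 0.55 when higher and −0.35 when lower, and 41 of 402 exceeded 2-fold, 16 upward and 25 downward. Replicate 4 lay above the range of its line's other libraries in all 6 lines for 66 genes (0.586%). The scaling factor of edgeR was itself above the range of the other libraries in 6 of 6 lines, and with library totals alone the split was 275 higher and 133 lower. The count dropped to 224 without the Lot8_M replicate 4 library and to 245 without the Lot7_M replicate 4 library.

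**Figure D4:**
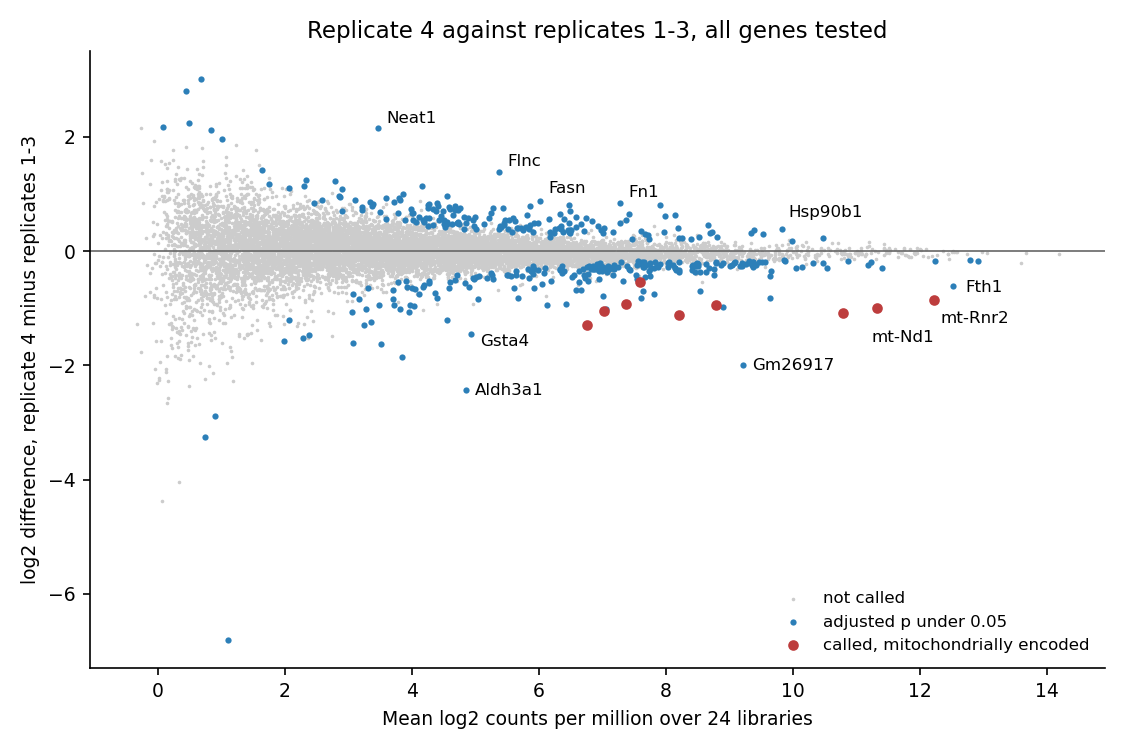
Log2 difference of replicate 4 from replicates 1 to 3 against mean log2 CPM for the 11262 genes tested, with called genes in blue and called mitochondrial genes in red. Most genes lie near 0, the called mitochondrial transcripts lie between −1.29 and −0.55, and Neat1 and Flnc are among the highest of the well-expressed genes.

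Of 14 tested long noncoding RNAs that are held in the nucleus or host small nucleolar RNAs, 7 were higher and none lower, with a median log2 difference of 0.34. Neat1 (chr19:5824708-5845478, minus strand), the RNA scaffold of nuclear paraspeckles, had 13.9 to 37.9 CPM in replicate 4 (median 23.6) and 1.90 to 11.0 CPM in replicates 1 to 3 (median 5.10). No library of the lower group reached the higher one, and the log2 difference was 2.15 ± 0.21 (SE, edgeR adjusted p = 3.9e-08), a 4.43-fold higher level. The snoRNA host Gas5 had 525 to 919 CPM (median 785) against 406 to 792 CPM (median 617). These ranges overlapped across lines, but replicate 4 was the highest library within each line, with a log2 difference of 0.32 ± 0.04 (SE, edgeR adjusted p = 1.8e-05).

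Further hosts of small nucleolar RNAs were Snhg20 (0.85), Snhg5 (0.56), Zfas1 (0.41) and Snhg15 (0.33). The nuclear speckle RNA Malat1 was called at 0.48 with an edgeR adjusted p of 0.0405, and lost its call in 23 of 40 alternatives. The list had 5 to 7 calls when 1 library was left out, and 2 calls without lot 8. There were 5 without the replicate 4 library of Lot7_F, of Lot7_M or of Lot8_M. Without the Lot8_M replicate 4 library the adjusted p of Snhg15 was 0.136.

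A pair of noncoding genes next to annotated ribosomal RNA went the other way. They were singled out after their values were seen and were given no place in a list. Gm26917 (chr17:39843013-39846341, plus strand), an annotated lincRNA, had 140 to 239 CPM in replicate 4 (median 171) and 394 to 1343 CPM in replicates 1 to 3 (median 702). The groups did not overlap, and the log2 difference was −1.99 ± 0.12 (SE). Its neighbour Gm42418 had a log2 difference of −1.01 ± 0.20 (SE). Reads of near-identical ribosomal repeats may be split between these models, so their levels are uncertain.

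Both filamin genes named here, which link actin filaments, were higher. Flnc, which encodes the actin crosslinker filamin C (chr6:29433256-29461883, plus strand), had 61.1 to 89.8 CPM in replicate 4 (median 75.1) and 16.2 to 51.2 CPM in the others (median 26.2). The 6 libraries were above all 18, with a log2 difference of 1.38 ± 0.11 (SE, edgeR adjusted p = 6.0e-10). Its relative Flna, filamin A, had 251 to 436 CPM (median 345) against 155 to 332 CPM (median 223), highest in each line, with a log2 difference of 0.61 ± 0.06 (SE, edgeR adjusted p = 2.2e-08). Of 17 tested contractile genes and targets of the mechanosensitive coactivator YAP, 4 were higher and 2 lower, with a median of 0.10. The higher ones were Flna, the smooth muscle protein transgelin, Tagln (0.37), thrombospondin 1, Thbs1 (0.41), and the matricellular Ccn1 (0.25). The lower ones were the YAP target Ankrd1 (−0.93) and calponin 2, Cnn2 (−0.29). Tagln and Ccn1 had adjusted p-values of 0.0565 without Lot8_M replicate 4 and 0.0760 without Lot8_F replicate 4, respectively.

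Of 25 tested extracellular matrix genes, 6 were higher and 1 lower, with a median of 0.24. Fn1, which encodes fibronectin, had 147 to 346 CPM in replicate 4 (median 206) and 66.3 to 265 CPM in the others (median 111). The lines differed in level, so the ranges overlapped, but replicate 4 was highest in each line, and the log2 difference was 0.84 ± 0.07 (SE, edgeR adjusted p = 2.2e-09). Tenascin C, Tnc (0.76), the collagen crosslinking enzyme Loxl2 (0.76), fibrillin 1, Fbn1 (0.68), collagen I, Col1a1 (0.65), and Thbs1 were the other 5. The metalloproteinase inhibitor Timp2 (−0.26) was lower. The higher count was 4 to 7 over the libraries left out, with 4 without Lot7_F or Lot7_M replicate 4, and 2 without lot 8. Without Lot7_F replicate 4 the adjusted p was 0.153 for Col1a1 and 0.0592 for Fbn1, and without Lot8_F replicate 4 it was 0.0670 for Timp2. Fibroblast and meningeal markers, whose source cells also make matrix, summed to 81.1 to 479 CPM in replicate 4 and 28.9 to 575 CPM in the others, with Lum at 0. Of the 3 markers tested, Col1a1 was called higher, and their median log2 difference was 0.55, with 0.37 to 0.76 over the 41 settings. Their part in this result was not tested.

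Some genes of sterol and fatty acid supply were higher as well. Fasn, the fatty acid synthase, had 88.1 to 111 CPM in replicate 4 (median 94.7) and 28.1 to 75.7 CPM in the others (median 52.9). The groups did not overlap, and the log2 difference was 0.88 ± 0.10 (SE, edgeR adjusted p = 9.3e-07). Of 23 tested genes of cholesterol synthesis and uptake, 4 were higher and none lower, with a median of 0.24. Hmgcs1, which makes the HMG-CoA used for sterols, had 26.8 to 48.1 CPM (median 39.0) against 12.7 to 35.7 CPM (median 21.7), above the range of its line in 5 of 6 lines. Its log2 difference was 0.76 ± 0.12 (SE, edgeR adjusted p = 0.000192).

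Insig1, an endoplasmic reticulum protein that restrains sterol-regulated transcription (0.94), and the sterol oxidase gene Msmo1 (0.33) were also among the higher genes. With 1 library left out the count was 3 to 6, with 3 without Lot11_F replicate 4. Msmo1 had an edgeR adjusted p of 0.127 without Lot11_M replicate 4. In the male lines alone no gene of the list was called. The promoter of Hmgcs1 is shown because this gene group is classically controlled through sterol response elements. Of the 3 called genes with a promoter in the RefSeq table, it was the only one with the letters TCACNCCAC, searched on both strands, which 1.24% of 32851 promoters hold. The window covers 250 bases before to 50 after the annotated start, chr13:119690101-119690400 (GRCm38.p6, plus strand), with the match in capitals.
Hmgcs1: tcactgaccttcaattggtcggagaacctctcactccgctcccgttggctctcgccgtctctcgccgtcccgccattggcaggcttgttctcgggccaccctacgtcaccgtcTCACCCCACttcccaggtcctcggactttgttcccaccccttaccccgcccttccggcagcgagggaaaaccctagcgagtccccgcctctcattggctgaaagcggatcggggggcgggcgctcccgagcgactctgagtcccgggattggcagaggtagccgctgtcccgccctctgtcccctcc

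Some chaperones of the endoplasmic reticulum were higher. Of 19 tested, 4 were higher and none lower, with a median of 0.22. Hsp90b1, the reticulum's Hsp90, had 959 to 1322 CPM in replicate 4 (median 1045) and 675 to 977 CPM in the others (median 851). It was highest in each line, with a log2 difference of 0.39 ± 0.05 (SE, edgeR adjusted p = 2.1e-05). The Hsp70 chaperone Hspa5 (0.30) and the disulfide isomerases Pdia6 (0.23) and Pdia4 (0.25) were the others. The count was 2 without Lot7_F or Lot7_M replicate 4 and 5 at most. The edgeR adjusted p was 0.112 for Pdia6 without Lot7_F replicate 4 and 0.147 for Pdia4 without Lot8_F replicate 4.

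Of 22 tested genes of the integrated stress response driven by Atf4, none was called in either direction, and none of 19 p53 targets was. Among 15 heat shock genes the small chaperone Cryab was lower (−0.69). Among 25 hypoxia genes the prolyl hydroxylase P4ha1 was higher (0.33), and 6 were higher under scaling by library totals alone, 3 with a replicate block and 2 with DESeq2. Among 17 NF-kB targets the chemokine Ccl2 was lower (−0.94), and among 17 STAT3 targets cyclin D1, Ccnd1, was lower (−0.33). DESeq2 called 2 of the NF-kB and 3 of the STAT3 targets lower. Of 30 immediate early genes 2 were higher, Egr1 (0.93) and Ccn1, and 3 lower, Klf2 (−0.84), Dusp5 (−0.54) and Fosl1 (−0.25). In proliferation, 2 of 25 genes of G2 and mitosis were higher, Top2a (0.34) and Mki67 (0.45), with 4 higher and 1 lower by DESeq2, and none of 24 S phase genes or 41 replication-dependent histone genes tested was called. The adjusted p was 0.157 for Mki67 without Lot7_M replicate 4, 0.145 for Klf2 and 0.125 for Dusp5 without Lot8_M replicate 4, and 0.220 for Fosl1 without Lot11_M replicate 4.

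Of 14 tested interferon response genes 1 was higher and 2 lower. The higher one, the signal transducer Stat2, had only 2.01 to 4.99 CPM in replicate 4 (median 3.25) and 0.137 to 3.49 CPM in the others (median 0.862). The lower ones were B2m, which encodes beta-2 microglobulin (−0.24), and Ifi35 (−0.56). Without the Lot8_M replicate 4 library the adjusted p was 0.106 for Stat2 and 0.162 for Ifi35, and without Lot7_M replicate 4 it was 0.0610 for B2m.

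The other well-expressed genes of largest change belonged to no list. Chd6, a chromatin remodeller, had 23.8 to 37.0 CPM in replicate 4 (median 26.5) and 5.88 to 22.6 CPM in the others (median 13.4). The groups did not overlap, and the log2 difference was 1.15 ± 0.17 (SE, edgeR adjusted p = 4.2e-05). The bromodomain gene Baz2b (0.99), collagen XII, Col12a1 (0.97), citron kinase, Cit (0.89), and the zinc finger gene Zc3h7a (0.89) were also higher. Of the lower genes, M1ap, which acts in meiosis (−1.30), and Eps8, an actin regulator (−1.23), were of this kind. Eps8 lost its call in 22 of 39 alternatives, and the adjusted p was 0.150 for Baz2b without Lot8_F replicate 4, 0.0743 for Cit without Lot7_F replicate 4 and 0.133 for Zc3h7a without Lot8_M replicate 4.

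Among detoxification, glutathione and metal-binding genes every call was downward. This list of 49 genes was chosen after its members' values were seen, so its count of 15 lower and none higher of 45 tested, with a median of −0.22, is a description. The iron store subunit Fth1 had 3070 to 4950 CPM in replicate 4 (median 4217) and 4722 to 10213 CPM in the others (median 5882). The ranges overlapped, replicate 4 was lowest in every line, and the log2 difference was −0.62 ± 0.07 (SE, edgeR adjusted p = 5.4e-07). Aldh3a1, an aldehyde dehydrogenase, had 3.40 to 6.96 CPM (median 5.79) against 0.78 to 97.7 CPM (median 29.4), with a log2 difference of −2.43 ± 0.38 (SE, edgeR adjusted p = 0.000148). Replicate 4 was narrow in level across lines that otherwise differed widely, and it lay below the range of its line in 5 of 6.

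Metallothioneins, small cysteine-rich proteins that bind zinc and copper, are among the genes of this list. Mt2 had 33.2 to 138 CPM in replicate 4 (median 60.6) and 37.0 to 300.3 CPM in the others (median 112). Lines differed, but replicate 4 was lowest in each of the 6, a level 50.2% lower (edgeR adjusted p = 3.4e-05). Mt1 had a log2 difference of −0.70. The glutathione transferases Gsta1 (−1.62), Mgst2 (−1.61), Gsta4 (−1.46), Gstm2 (−1.06), Gstm1 (−0.75), Gsto1 (−0.33) and Gstp1 (−0.22) were lower too, as were the quinone reductase Nqo1 (−1.21), the alcohol dehydrogenase Adh7 (−1.07), the ferritin light chain Ftl1 (−0.21) and the pentose phosphate enzyme Taldo1 (−0.33). Without the Lot8_F replicate 4 library 9 genes of the list were called, and the adjusted p was 0.0915 for Nqo1, 0.0983 for Gsta1, 0.0969 for Gstm2, 0.0779 for Adh7 and 0.131 for Ftl1. Gstp1 had an adjusted p of 0.169 without Lot8_M replicate 4. Without lot 8 the count was 6.

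The promoters of Mt2 and Mt1 are shown because metal response elements are a known feature of these genes. Windows run from 250 bases before to 50 after the RefSeq start on GRCm38.p6, both on the plus strand, and capitals mark the letters TGCNCNC on either strand. Mt2 (chr8:94172368-94172667) holds 6 matches, 3 on each strand, and Mt1 (chr8:94178839-94179138) holds 3, all on the plus strand. Of 32851 promoters of this length, 51.0% hold at least 1 match, 7.1% at least 3 and 0.225% at least 6. Over the 15 promoters of 13 called genes in the list, 7 hold a match. The letters TGACNNNGC, the core of antioxidant response elements, are in 1 of those 15 promoters and in 12.4% of all.
Mt2: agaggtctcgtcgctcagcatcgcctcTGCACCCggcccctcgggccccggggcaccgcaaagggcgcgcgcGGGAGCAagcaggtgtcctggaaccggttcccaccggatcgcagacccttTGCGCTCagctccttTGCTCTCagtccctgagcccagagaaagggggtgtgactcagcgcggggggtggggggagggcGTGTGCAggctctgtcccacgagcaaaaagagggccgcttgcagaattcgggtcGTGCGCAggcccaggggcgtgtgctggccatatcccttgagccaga
Mt1: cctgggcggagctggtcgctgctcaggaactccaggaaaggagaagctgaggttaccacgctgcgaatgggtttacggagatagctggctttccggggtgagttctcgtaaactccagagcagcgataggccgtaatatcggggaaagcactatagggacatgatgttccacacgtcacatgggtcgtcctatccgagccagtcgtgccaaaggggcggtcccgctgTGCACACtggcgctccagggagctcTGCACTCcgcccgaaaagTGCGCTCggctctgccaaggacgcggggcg

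Genes of the model were checked in the same way. Trp53, the gene of the protein that DNp53 acts on, had 157 to 333 CPM in replicate 4 (median 239) and 201 to 462 CPM in the others (median 282). It was lowest in each line, with a log2 difference of −0.29 ± 0.07 (SE, edgeR adjusted p = 0.0103). Whether reads of DNp53 count toward Trp53 is not given in the sources used here. Nf1 was near background, with a log2 difference of 0.36 ± 0.42 (SE), and was not called.

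Markers of other cell types were low. Microglia markers summed to 5.88 to 13.4 CPM in replicate 4 and 4.12 to 15.4 CPM in the others, with Itgam, Tyrobp, C1qa and C1qb at 0. Oligodendrocyte markers summed to 8.93 to 16.5 and 7.34 to 28.6 CPM, with Olig2, Sox10 and Mog at 0. Endothelial markers summed to 6.19 to 23.4 and 4.50 to 21.1 CPM, with Cldn5 and Emcn at 0. Neuron markers summed to 8.27 to 38.5 and 8.71 to 82.1 CPM, with Rbfox3, Snap25, Syt1 and Nefl at 0. In that list Stmn2 (−1.86) was lower and Map2 (0.89) higher, though Map2 lost its call in 23 of 39 alternatives.

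Transcript length and base composition went with the direction of change. These classes were chosen after the values were seen and are given without a test, over 5136 genes whose mean log2 CPM reached 4. Of transcripts under 1 kb, 0.394% were higher in replicate 4 and 7.50% lower. Of those of at least 8 kb, 17.7% were higher and 1.56% lower, that is 34 of 192 higher. From 1 to 2, 2 to 4 and 4 to 8 kb, 0.556%, 1.54% and 4.67% were higher and 6.77%, 3.33% and 1.01% lower. The median length of the longest annotated transcript was 5779 bases for genes called higher, 1834 for those called lower and 2878 for all, and Spearman's rho with the log2 difference was 0.24 across genes. Among genes named as higher, the longest annotated transcript has 20771 bases for Neat1, 11971 for Fbn1, 10050 for Fasn, 9038 for Flnc, 8456 for Flna and 8315 for Fn1. Of those named as lower, Mt2 has 511 and the called mitochondrial mRNAs 519 to 1824. These were picked as examples, and other named genes went against the trend. Of the higher ones, Snhg15 has 675 bases, Snhg5 1221 and Tagln 1595. Of the lower ones, Mrpl17 has 7300, Atp5g1 4715 and Eps8 4567.

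Base composition of the 3′ end, taken over the last 300 bases, ran the other way. With GC under 35%, 3.33% of genes were higher and 1.49% lower, whereas at 55% or more 1.35% were higher and 8.63% lower, with a rho of −0.23. From 35% to 45%, 3.54% were higher and 2.38% lower. The called mitochondrial mRNAs, though lower, had 31.7% to 38.3% GC. Of the higher genes, Neat1, Flna and Flnc had 55%, 53% and 51%, and Fn1 and Fasn had 37% and 41.3%. Transcripts of at least 8 kb took 1.46% to 1.84% of counts in replicate 4 against 1.27% to 1.61% in replicates 1 to 3. Their share in replicate 4 was above the mean of replicates 1 to 3 in 6 of 6 lines and above their range in 5. The part of length, composition or RNA quality in the gene differences was not tested.

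**Figure D5:**
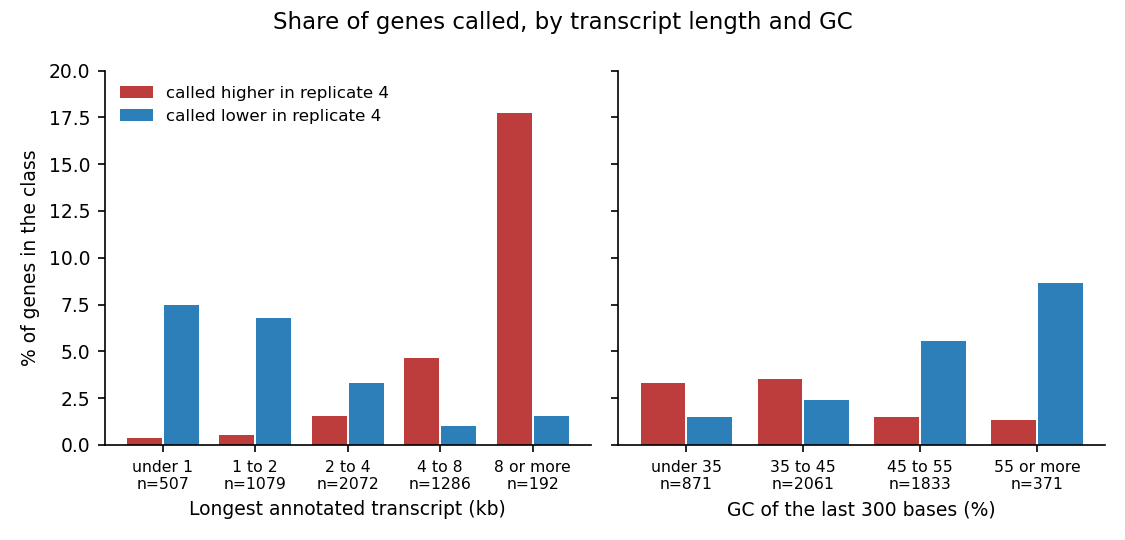
Percent of genes called higher and lower in replicate 4, by class of longest transcript length in kb and by GC of the 3′ end in percent. Higher calls run from 0.394% under 1 kb to 17.7% at 8 kb or more, and lower calls from 1.49% below 35% GC to 8.63% at 55% or more.

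Of 8 measures of library makeup tested by exact permutation within lines (two-sided, smallest possible p 0.000244), 1 held after adjustment. The number of genes with a count was higher in replicate 4 in 6 of 6 lines, by 309 ± 103 (SD, n = 6 lines), with an exact permutation p of 0.00220 and an adjusted p of 0.0176. Totals were above that mean in 6 of 6 lines as well, and above the range in 3, but not beyond the spread (exact permutation p = 0.183). With libraries thinned to 1 depth the gain was 249 genes (exact permutation p = 0.000244). The share of counts on the 10 most abundant genes was lower by 0.257 points, with an exact permutation p of 0.0461 and an adjusted p of 0.185. The shares of ribosomal protein, lncRNA, pseudogene, histone and nuclear respiratory chain genes had exact permutation p-values of 0.283, 0.346, 0.390, 0.505 and 0.611. Without the noncoding genes next to ribosomal RNA, such as Gm26917, the lncRNA share was 0.541% to 0.676% in replicate 4 and 0.455% to 0.613% in the others. That share, which was not tested, lay above its line's range in 6 of 6 lines. Its mean difference was 0.0637 ± 0.0154 percentage points (SD, n = 6 lines). For cytosolic ribosomal proteins, 1 of 81 tested genes was higher and 2 lower, with 4 and 2 under scaling by library totals alone and 2 and 5 with DESeq2.

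Libraries numbered 1 to 3 also differed among themselves. Among the 3487 better expressed genes, the median SD within a line was 0.169 (log2 CPM). Of these genes 273 were called in replicate 4, and 9 of the 100 most variable were among them, a share near that of all. The most variable was Bex1, a small signalling adaptor gene, at 0.816. In Lot7_F it had 146, 24.5 and 247 CPM in libraries 1 to 3 and 12.97 CPM in library 4, so the others spanned a wider range than the step to replicate 4.

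Gng2, a G-protein gamma subunit gene with an SD of 0.777, varied in the same line, at 10.5, 1.56 and 20.99 CPM and 1.99 CPM in library 4. Twf1, the actin-binding twinfilin gene, was highest in library 1 in 2 male lines, at 412, 133, 77.4 and 59.9 CPM in Lot11_M and 224, 65.8, 72.8 and 69.9 CPM in Lot8_M. Ptp4a2, a phosphatase gene, had the same order, at 408, 183, 70.2 and 66.2 CPM and 278, 60.7, 86.5 and 74.9 CPM. Neither Bex1, Gng2, Twf1 nor Ptp4a2 was called in replicate 4. Of the 100 most variable genes 40 were also among the 100 most variable in lots 6 and 12, which share no library with these lines.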

How the data were processed

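Raw counts per gene, unnormalized, were deposited by the authors for 36 BRB-seq libraries. Per the submitters' processing notes, the tools were STAR 2.7.6a, Subread 2.0.2 and cutadapt 2.10 and the build GRCm38, and how UMIs, strand and multi-mapping reads were handled is not given in the sources used here. Of 46078 genes in the table, 45229 matched GENCODE M21, and the 849 others held 0.0295% of counts. The 24 libraries of lots 7, 8 and 11 were fitted with edgeR 4.0.16 (R 4.3.3; TMM scaling, filterByExpr, quasi-likelihood test) with line as a block, with Benjamini-Hochberg adjustment over 11262 genes. CPM values are TMM-scaled. Calls had an adjusted p under 0.05. Interactions with sex and lot, and replicate numbers 1 to 3, were tested in the same way. Named genes were the mitochondrial genes, the 10 highest and 10 lowest log2 differences among called genes whose mean log2 CPM reached 3 (prior count 2), up to 4 called members of each list and the 10 largest within-line SDs. Other called list members beyond 4 were named after their values were seen. Members and lists were chosen with earlier results of these data known. On simulated counts of 11005 genes, the fit recovered 24%, 36%, 62% and 88% of changes of 1.25, 1.5, 2 and 4-fold, with 5 false calls. Simulated libraries were drawn independently, so these figures do not cover differences shared by libraries of the same number. Alternatives covered scaling, filters, DESeq2 1.42.0, thinning to equal depth, a replicate block and libraries, lots and sexes left out. The replicate block used limma 3.58.1 (voom) in place of edgeR, except for the sex difference. Promoter sequences are from RefSeq (GRCm38.p6). Column assignments left 0 sample columns unused. The values of 1 called gene are not reported here.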

Additional observations from a re-analysis of the deposited data

Results flagged for a closer look

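In groups of 4 to 6 values, 7 of 79 held a value whose gap to its nearest neighbour was large against the group's range. Chance alone flags about 1 in 20 such groups, but the groups share libraries. The low mitochondrial share of replicate 4 was also known beforehand. The count of 7 is therefore a description and cannot be read as an excess over chance. Among the 4 libraries of Lot8_F, replicate 4 had a mitochondrial mRNA share of 0.324%, apart from the others at 0.608% to 0.641%. In Lot11_M, replicate 4 stood at 0.333% against 0.609% to 0.660%. In Lot7_F the mitochondrial rRNA share of replicate 4 was 0.336% against 0.590% to 0.628%. The mt-Nd1 log2 difference of replicate 4 in Lot8_M was −1.27, farther from 0 than in the 5 other lines at −0.99 to −0.88.

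The remaining values did not concern mitochondrial transcripts. The Lot7_F library numbered 3 had 0.641% of its counts on lncRNA, below the others at 0.684% to 0.691%. The Lot8_M library numbered 1 had 0.0782% of its counts on replication-dependent histone genes, above 0.0647% to 0.0669%. In Lot8_F the pseudogene share of replicate 4 exceeded the mean of its line by 0.354 percentage points, against −0.0537 to 0.0287 in the other lines.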

How the results depend on the processing

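The 7 mitochondrial mRNA calls held in all 41 settings. The 402 calls for replicate 4 became 646 with DESeq2, 224 to 434 with 1 library left out, 308 to 365 without replicate number 1, 2 or 3, 179, 115 and 264 without lots 7, 8 and 11, 75 in female and 91 in male lines. Other scalings and filters gave 401 to 579. Of 92 named genes called, 21 kept the call in every alternative and none reversed. The 0 calls for the sex difference became 12 without a filter and 0 to 1 with 1 library left out. Those between lots, whose alternatives were chosen after seeing the data, became 38 without a filter, 1 with DESeq2 and 0 to 1 with 1 library left out. Those among numbers 1 to 3 became 124 without a filter, 1 at 10 CPM or more, 21 with DESeq2, 2 without lot 7, 1 without lot 11 and 0 to 2 with 1 library left out. The cause of these shifts was not tested, although fewer samples entered when libraries were left out. The mitochondrial mRNA share differed by −0.414 relative to nuclear counts without ribosomal protein genes, −0.540 with rRNA and tRNA, and −0.975 as a log2 ratio, against −0.305. With 1 library left out it was −0.313 to −0.299. The share of the 10 most abundant genes differed by −0.258, −0.239 and −0.275 without lots 7, 8 and 11. Same-numbered female and male libraries of a lot correlated above 0.1 in 6 of 12 pairs (median 0.122). Those with different numbers did so in 0 of 36 (median −0.050), so same-numbered libraries of a lot may not be independent. The main fit did not pair libraries by number. A replicate block gave 507 calls, but it was fitted with limma's voom in place of edgeR. The effect of the block and that of the changed test cannot be told apart. Depth limits genes of few counts.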

Other observations

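mt-Nd3 had 0 to 3 counts in each of the 22 libraries of lots 6, 7 and 8, and 17 to 67 counts in each library of lots 11 and 12. Crct1, an epidermal gene, had 171, 253, 87.2 and 401 CPM in the libraries numbered 1 to 4 of Lot7_F, against 2.46 to 13.1 CPM in the other 5 lines. Both were noticed after their values were seen and carry no test.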
